A study of Mus musculus with 2 samples.

Results

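A set of 41 genes that mark neurons, glia and their progenitors was examined in CH cells, a small circulating population sorted from the blood of healthy mice. The genes were chosen by name from known lineage markers, with no threshold on these arrays, although earlier results of these data were known when the list was made. Every array feature (probe set) whose annotation names exactly one of them was taken. All 41 genes had such a probe set, and together they had 107 of the 34945 single-gene probe sets, out of 18193 genes in all. They were grouped by role into 8 progenitor genes, 19 neuronal genes, 7 synaptic genes (here vesicle proteins and enzymes of transmitter synthesis) and 7 glial genes.

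The cells, labelled PlCH, were C57bl/6 blood cells negative for CD45 and lineage markers and positive for the DNA dye Vybrant within a small size gate. RNA was hybridised to 2 Affymetrix mouse expression arrays, 1 for each pool. The submitters' notes give 15 adult mice of both sexes, aged 7 months, for each pool, whereas the general methods of the paper give younger mice and smaller pools. The labels name no transgene, deletion or treatment. All arrays form 1 group, so no other population was compared here and each level was set against a limit. In pooled RNA, a signal from a few cells and a low amount of RNA in every cell cannot be told apart. The notes call the pools biological replicates, and p-values measure only the spread between these 2 arrays.

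Signals are log2 values as deposited. A gene was counted above the limit if any of its probe sets was higher than 5 on both arrays, 5 being the value below which the paper removed genes before clustering. Across probe sets the arrays had medians of 5.54 and 5.52, and their difference had an SD of 0.20. As a measured background, 78 genes of smell and taste receptors (87 probe sets) had a median probe set signal of 4.04 and a 95th percentile of 6.02, the highest being Vmn1r44 at 6.92. Of these receptor genes, 13 were above 5 and 11 were above 5 with limma, a linear model that shares the spread over all probe sets, so a signal just above 5 does not separate a gene from background. Signal also reflects the affinity of each probe, and levels of different genes are therefore not ranked.

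Neurons arise from progenitors that carry the intermediate filament Nestin and RNA-binding Musashi proteins, and that switch on proneural factors such as Neurog2 before leaving the cell cycle. Maturing neurons then assemble neurofilaments and neuronal microtubules, display adhesion molecules such as L1cam on their surface and build the machinery of vesicle release. Glia follow separate programmes, with Olig1 and Olig2 in the oligodendrocyte lineage and Gfap in astrocytes. Several of the genes are not restricted to nervous tissue. Nestin, Prom1, Ncam1, Isl1 and Msi2 are also known from muscle, heart, epithelial or blood-forming progenitors.

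In CH cells, a smaller share of the lineage genes than of all genes passed each of the limits that follow. Above 5 were 23 of the 41 members (56.1%), against 71.2% of all genes. Above 6 were 13 members (31.7%), against 57.8% of all genes, and 13 were also above the 95th percentile of the receptor probe sets, against 57.6% of all genes. At a limit of 8, Gap43, Msi2, Ncam1 and Stmn2 were above it, 4 of 41 (9.76%) against 37.0% of all genes. With limma at an adjusted p under 0.05, 21 members were above 5, against 69.1% of all genes. The median of the members' highest probe sets was 5.19, and that of all genes was 6.84. Of the members, 8 (19.5%) had a probe set above every receptor probe set of the background, against 49.0% of all genes. These were Elavl2, Gap43, Msi2, Ncam1, Nefl, Nes, Prom1 and Stmn2. The highest probe sets of the other members, among them Tubb3, Rbfox3, Syt1, L1cam, Isl1 and Mbp, did not pass the highest receptor probe set. By role, 5 of 8 progenitor, 13 of 19 neuronal, 2 of 7 synaptic and 3 of 7 glial genes were above 5. The roles were not tested against each other.

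A gene with more probe sets has more chances to pass, and the members had on average 2.61 probe sets against 1.92 for all genes. Members with 1 probe set were above 5 in 3 of 12 cases, against 56.7% of all such genes, and those with 2 or more in 20 of 29, against 86.0%. Counted by probe set, 46 of 107 (43.0%) were above 5, against 64.8% of all single-gene probe sets.

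**Figure D1:**
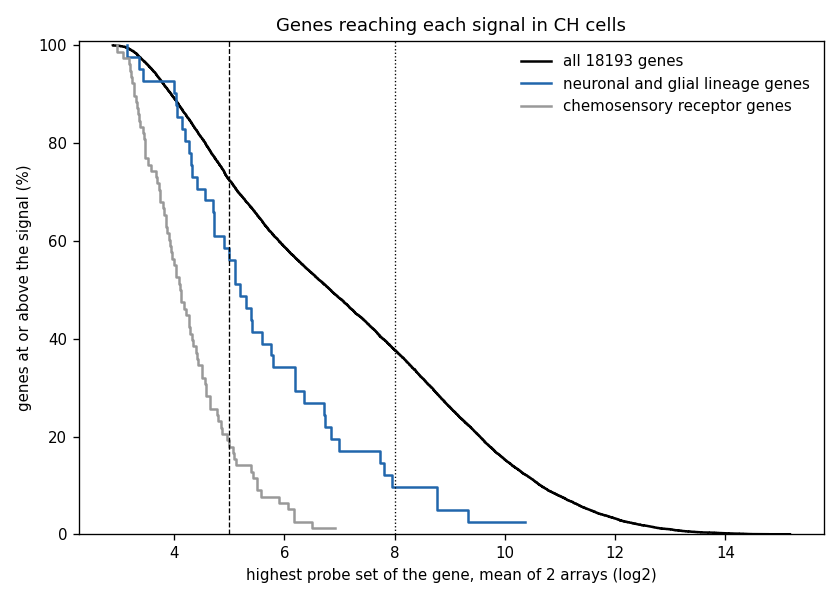
Percentage of genes (vertical axis) whose highest probe set, as the mean of the 2 CH cell arrays, reaches the log2 signal on the horizontal axis, for all genes (black), the 41 neuronal and glial lineage genes (blue) and 78 chemosensory receptor genes (grey). The blue line lies between the others at both the dashed line at 5 and the dotted line at 8, and no receptor gene passes 6.92.

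Among the progenitor genes, the RNA-binding protein Msi2 and the stem cell markers Nestin and Prom1 had probe sets well above the limit, and the proneural factors did not. Msi2, which controls translation in progenitors, had 8.71 on array 1 and 8.83 on array 2 with its highest probe set, a mean of 8.77 ± 0.08 (SD, n = 2 arrays). Its other probe sets had means of 8.37, 8.18, 7.62, 6.99, 5.53, 5.23 and 4.14, so that 7 of 8 were above 5. The genes of the list differed in how far their probe sets agreed, and Nes is the next example. Nes, which encodes Nestin, had 7.94 and 7.95 with its highest probe set, and means of 6.90 and 4.32 with the others. Prom1, a membrane glycoprotein also known as CD133, had 7.74 and 7.87 with its single probe set. Both arrays placed these 3 genes above every receptor probe set of the background.

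Msi1, the paralog of Msi2, had 5.78 and 5.75 with its highest probe set, and means of 5.62 and 3.62 with the others, all within the range of the receptor background. Neurog1, a proneural transcription factor, was just over the limit at 5.16 and 5.22 with 1 probe set (adjusted p = 0.048 by limma) and at 3.40 with the other. Neurog2, a related factor, had 4.32 and 4.52, and Neurod1, which acts after it in differentiation, had means of 4.04 and 3.92. Fabp7, the lipid-binding protein of radial glia, had 4.41 and 4.21. None of these last 3 genes was above 5 on either array.

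Of the cytoskeletal genes and those of growth cones, Stmn2 and Gap43 had a probe set well above every receptor probe set of the background. Nefl had one only just above the highest of them, Vmn1r44 at 6.92. Stmn2, which regulates microtubule assembly in growing axons, had 9.32 and 9.33 with 1 probe set and 8.26 and 8.26 with the other. Gap43, a membrane protein of growth cones, had 8.92 and 8.63 with its single probe set. Both genes were above 8 on each array with every probe set. Tubb3, the neuronal beta-tubulin, had 6.71 and 6.76. Nefl, the light neurofilament chain, had 7.00 and 6.99 with 1 probe set and a mean of 5.20 with the other. Its partners were below the limit on both arrays, with 4.58 and 4.81 for Nefm and 4.12 and 4.17 for Nefh. The filament protein Ina had means of 5.80, 5.71 and 4.71. Map2, a microtubule protein of dendrites, had 1 of 4 probe sets above 5, at 5.59 ± 0.18 (SD, n = 2 arrays), with the others between 3.59 and 4.21. Mapt, which encodes tau, had means of 5.42 and 5.25 above the limit and 4.06 and 4.04 below it. The neurofilament triplet was therefore represented above the limit by 1 of its 3 chains.

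Ncam1, an adhesion molecule of the immunoglobulin family, gave a strong signal that depended on the probe set. With its highest probe set it had 10.41 on array 1 and 10.31 on array 2, and a second one had 9.97 and 9.80. Further probe sets had means of 6.74, 6.40 and 5.90, and 2 had means of 3.87 and 3.76. The highest and lowest differed by 6.61, the largest such difference of any member. Ncam2, its paralog, had 3 probe sets with means from 3.83 to 3.99, none above 5 on either array. L1cam, an adhesion molecule of axons, had 6.31 and 6.40 with 1 probe set and a mean of 3.94 with the other.

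Dcx, a microtubule protein of migrating young neurons, was below the limit with all 4 probe sets, the highest at 4.80 and 4.66. Rbfox3, the splicing factor detected as NeuN in mature neurons, had 6.81 and 6.87 with 1 probe set, a mean of 5.19 with the second (adjusted p = 0.049 by limma), and 4.09 and 3.91 with the third. Elavl2, a neuronal RNA-binding protein of the Hu family, had 7.61 and 7.85 with its highest probe set and 7.42 and 7.39 with the next. Its other probe sets had means of 5.88, 5.41 and 5.11, the last with 5.30 on array 1 and 4.91 on array 2. The other Hu genes did not stand clear of the limit. Elavl3 had 5.16 and 5.06 with its highest probe set (adjusted p = 0.20 by limma), 5.28 and 4.85 with the second, and a mean of 3.49 with the third. Elavl4 had means of 4.72, 3.60 and 3.58. Of the homeodomain factors, Isl1, also active in motor neurons and heart progenitors, had 6.03 and 6.36 with 1 probe set and a mean of 5.69 with the other, while Pou4f1, a factor of sensory neurons, had means of 4.05 and 3.60.

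Of the probe sets of the synaptic members, 2 of 14 were above 5 (14.3%), against 64.8% of all single-gene probe sets. Snap25, a protein of the vesicle fusion complex, had 3.20 and 3.54 with 1 probe set and 3.35 and 3.26 with the other. Syp, the vesicle protein synaptophysin, had 5.12 and 5.09 with 1 probe set (adjusted p = 0.21 by limma) and 4.98 and 4.95 with the other. Syt1, the calcium sensor of vesicle release, had 6.93 and 6.50 with 1 of its 4 probe sets, and means of 4.97, 4.37 and 3.33 with the others. The enzymes of transmitter synthesis lay around or under the limit. Th, the enzyme of dopamine synthesis, was on different sides of it, at 4.86 on array 1 and 5.15 on array 2. Gad1 and Gad2, which make the inhibitory transmitter GABA, reached 4.90 ± 0.08 and 4.33 ± 0.07 (SD, n = 2 arrays), and Chat, which makes acetylcholine, reached 4.20 ± 0.06.

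None of the 7 glial members was above 6 on both arrays, a limit passed by 57.8% of all genes. Further glial genes outside the members are given below. The oligodendrocyte factors Olig1 and Olig2 had means of 4.27 and 3.15, and Mog, a protein of the myelin surface, one of 3.44. Mbp, a main protein of myelin, had 3 of 8 probe sets above 5. Its highest had 6.51 on array 1 and 5.89 on array 2, followed by means of 5.98 and 5.98, with the remaining probe sets from 3.32 to 4.68. Gfap, the filament protein of astrocytes, had 5.59 and 5.20 with 1 probe set (adjusted p = 0.020 by limma) and means of 4.07 and 3.68 with the others. S100b, a calcium-binding protein of glia, had 5.26 and 5.34 with 1 probe set and a mean of 3.61 with the other. Aqp4, the water channel of astrocytes, was below the limit with all 3 probe sets, the highest at 4.57. For each of Mbp, Gfap and S100b, most or an equal number of probe sets lay below the limit.

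**Figure D2:**
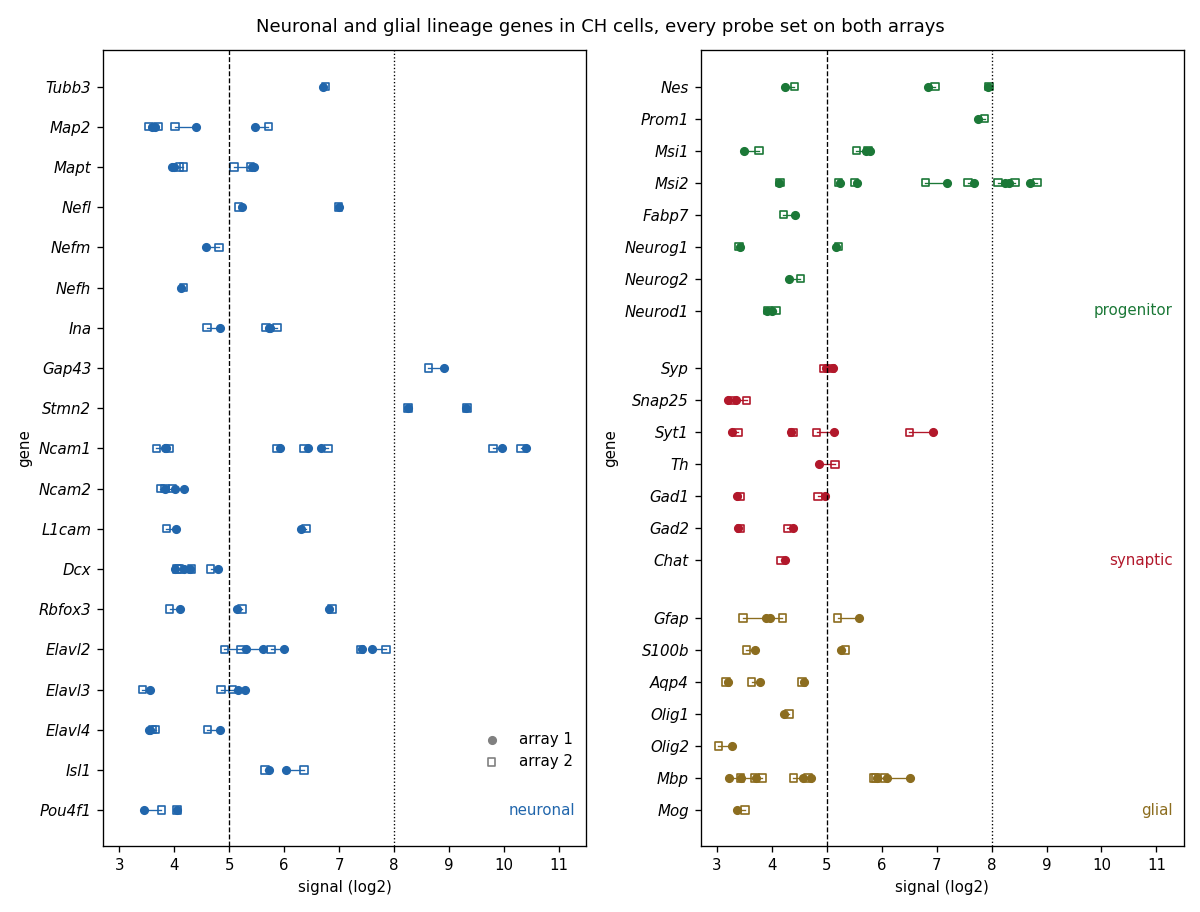
Log2 signal (horizontal axis) of every single-gene probe set of the 41 members, by gene, with array 1 as filled circles and array 2 as open squares joined by a line, and colours for the roles. Vertical lines mark 5 (dashed) and 8 (dotted), and the latter is the value that Gap43, Msi2, Ncam1 and Stmn2 exceed on both arrays.

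Probe sets of the same gene often disagreed. Of the 29 members with 2 or more probe sets, 3 had all of them above 5 on both arrays, 9 had none, and 17 had some on each side. The distance between the highest and lowest probe set of a gene ran from 0.06 for Snap25 to 6.61 for Ncam1, with a median of 1.62, far beyond the differences between the arrays. When every probe set of a gene had to be above 5, the members that remained were Gap43, Isl1, Nefl, Prom1, Stmn2 and Tubb3, 6 of 41 (14.6%) against 50.4% of all genes. When the median of a gene's probe sets was used instead, 15 members (36.6%) were above the limit, against 65.2% of all genes, and no glial gene was among them.

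The arrays gave nearly the same values for the members. Over the 107 probe sets, array 1 minus array 2 had a median of 0.03 and an SD of 0.20, and 60 were higher on array 1. Differences beyond 2 SD of all probe sets occurred in 5 member probe sets (4.67%), against 5.38% of all probe sets. These 5 belonged to Mbp (0.62), Elavl3 (0.43), Syt1 (0.43), Ncam2 (0.43) and Gfap (0.42), all higher on array 1. With 1 array for each pool, such a difference has no replicate check. Among the members, Th alone had its only probe set, and so its call, on different sides of 5 on the arrays.

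**Figure D3:**
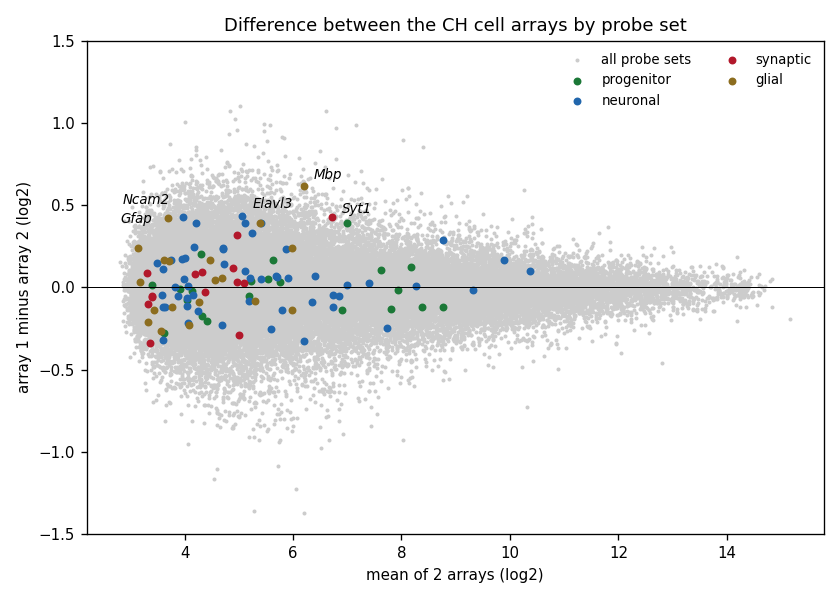
Array 1 minus array 2 in log2 (vertical axis) against the mean of both arrays (horizontal axis) for all probe sets in grey and the members in the colours of their roles. The 5 members with the largest differences are named, with Mbp at 0.62.

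Other genes of the same programmes were listed by role, and no list was tested against another. Of the further progenitor genes, 10 of 14 were above 5 (71.4%), near the 71.2% of all genes. Above 8 were 2 (14.3%), against 37.0% of all genes. Of their probe sets, 58.3% were above 5, against 61.9% for the progenitor members and 64.8% for all single-gene probe sets. Sox4, a factor active in many embryonic tissues, reached 12.06, and Otx2, a factor of the epiblast and forebrain, 8.36. Dll3, an inhibitor of Notch signalling, reached 7.64 and Sox11, a relative of Sox4, 7.52. Sox1, a marker of neural fate, had 5.19 and 4.95 and so lay on both sides of the limit, and the Notch target Hes5 was close to it at 5.20.

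Of the further neuronal genes, 20 of 21 were above 5 (95.2%), against 71.2% of all genes. Above 8 were 6 (28.6%), against 37.0% of all genes. Dpysl3, which guides axon growth, reached 11.05 and Map1b, a microtubule protein of growing axons, 9.69. Nrn1, a membrane-anchored protein that promotes neurite growth, reached 9.49 and Scg2, a protein of secretory granules, 9.40. Scg3, another granule protein, was close to the limit at 5.06, and Cntn1, an adhesion molecule of axons, was not above it at 4.95.

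Of the further synaptic genes, 16 of 25 were above 5 (64.0%) and 0 above 8, against 71.2% and 37.0% of all genes. The complexins Cplx2 and Cplx1, which act on vesicle fusion, reached 7.99 and 7.73, the vesicle protein Vamp2 reached 7.97, and Dbh, the enzyme that makes noradrenaline, 7.11. Close to the limit were Grin2b at 5.22, Vamp1 at 5.12, Slc17a7 at 4.80, Slc18a2 at 4.73, Sv2b at 4.72 and Syn2 at 4.71. Grin2b is a receptor subunit for glutamate, Slc17a7 and Slc18a2 load transmitter into vesicles, and Vamp1, Sv2b and Syn2 are vesicle proteins.

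Of the further glial genes, 15 of 18 were above 5 (83.3%), against 71.2% of all genes. Above 6 were 11 (61.1%), against 57.8%, and above 8 were 3 (16.7%), against 37.0%. The gap junction protein Gja1, widely made outside the brain, reached 13.14, Pmp22, a myelin protein also made in fibroblasts, 9.98, the glutamine synthetase Glul 9.59 and Sox9, a factor of glia and cartilage, 7.93. Mag, a myelin protein, was close to the limit at 5.30. Sox10, which defines the neural crest and its glia, had a mean of 6.41 with its highest probe set and 5.10 with its lowest.

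Regulators known to hold back neuronal genes were above 5 in 17 of 17 cases, against 71.2% of all genes. Above 8 were 16 (94.1%), against 37.0% of all genes. Whether these regulators act on the members in CH cells was not tested. Rest, the factor that silences neuronal genes outside the nervous system, had 10.15 and 10.23 with its highest probe set and a mean of 4.97 with its lowest. Ptbp1, a splicing factor that represses neuronal exons, reached 12.46. Ctdsp2, a phosphatase of the silencing complex, reached 11.97, the histone deacetylase Hdac2 11.67 and the demethylase Kdm1a 10.97. Of the widely made relatives of the members, 15 of 15 were above 5 and 13 (86.7%) above 8, against 71.2% and 37.0% of all genes. Among them were the filament protein Vim at 14.03 and 13.97 on the arrays, the tubulin Tubb5 at 13.52, Stmn1 at 12.71 and Fabp5 at 12.41. The families of Stmn2, Tubb3, Nestin and Fabp7 thus each had a widely made relative above the limit.

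**Figure D4:**
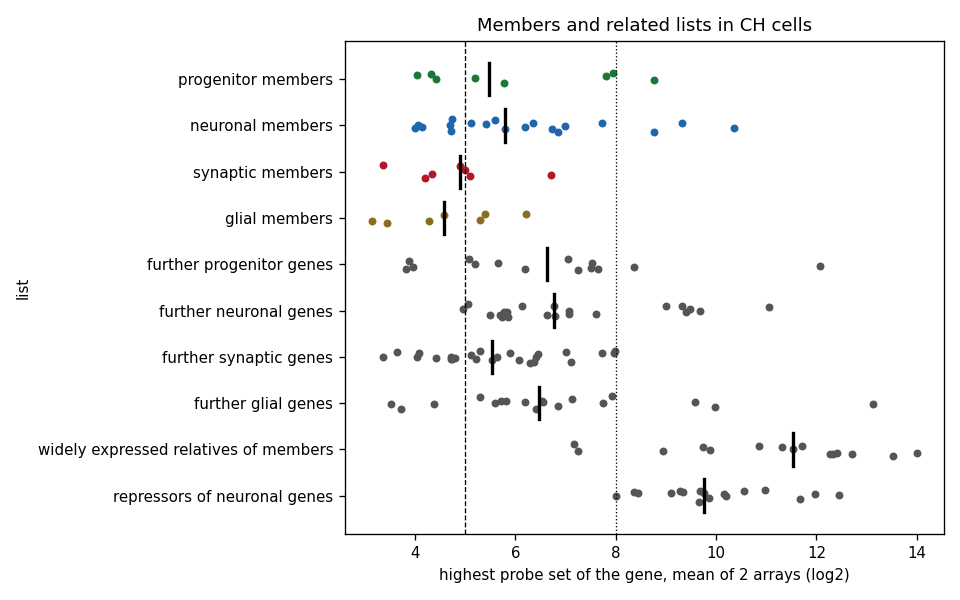
Log2 signal of the highest probe set of each gene, as the mean of the 2 CH cell arrays (horizontal axis), for the members by role and for related lists, with a black bar at each median and vertical scatter for legibility only. The medians are 4.90 for synaptic members, 4.57 for glial members and 9.76 for repressors of neuronal genes.

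Markers of other cells were read on the same arrays. Leukocyte markers were above 5 in 6 of 11 cases (54.5%), against 71.2% of all genes, and above 8 in 1 (9.09%), against 37.0%. The highest were Lyz2 at 9.58, Csf1r at 7.42, Cd3e at 6.61 and Cd4 at 6.08. Of these, Cd3e and Cd4 lay within the range of the receptor background, and the other probe set of Cd4 had a mean of 4.38. Ms4a1, Cd3g and Itgam were below 5, at 4.33, 3.88 and 3.85. Ptprc, which encodes CD45, used to remove leukocytes in the sort, had 4.95 and 5.24 with its higher probe set and a mean of 3.58 with the other. Nkg7 at 5.15 and Cd79a at 4.72 were also near the limit. Markers of erythroid cells and platelets were above 5 in 7 of 10 cases (70.0%), near the 71.2% of all genes. At 8, 0 were above, against 37.0% of all genes. The highest were Itga2b at 7.18, Ppbp at 6.99, Gp9 at 6.41 and Gp1bb at 6.34. Of the erythroid genes, Klf1 reached 5.90, while Alas2, Epb42 and Hba-a1 were below 5, at 4.91, 4.62 and 4.22. Mesenchymal markers were above 5 in 10 of 10 cases, against 71.2% of all genes, and above 8 in 7 (70.0%), against 37.0%. The highest were Col1a2 at 14.27, Fn1 at 13.93, Sparc at 12.85 and Col3a1 at 12.83. The part of such cells in the signals of the members was not tested.

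Promoters of the members were read from RefSeq, build GRCm38.p6, as windows from 250 bases before to 50 after the first listed start of each gene. Of the members, 29 had a window. Not in the table were Msi1, Mapt, Nefl, Nefm, Nefh, Gap43, Stmn2, Ncam1, Snap25, Aqp4, Olig1 and Mbp. A ratio of observed to expected CpG of at least 0.6, as in CpG islands, was found in 10 of 16 windows of members above 5 (62.5%) and in 6 of 13 of those not above it (46.2%), against 57.0% for all measured genes with a window. CpG-rich promoters were therefore present on both sides of the limit. The 250 bases before the start of Msi2, above 8 with 3 of its probe sets, and of Ncam2, below 5 with all of its probe sets, show this, with each CG in capitals (29 in Msi2 and 32 in Ncam2). The Msi2 stretch lies at chr11:88718278-88718527 on the minus strand and that of Ncam2 at chr16:81200447-81200696 on the plus strand.
Msi2: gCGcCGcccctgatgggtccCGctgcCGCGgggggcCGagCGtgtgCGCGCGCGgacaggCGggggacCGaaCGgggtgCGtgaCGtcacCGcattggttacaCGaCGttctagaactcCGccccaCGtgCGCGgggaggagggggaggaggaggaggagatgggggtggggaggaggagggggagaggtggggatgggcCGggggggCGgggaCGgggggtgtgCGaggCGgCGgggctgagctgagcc
Ncam2: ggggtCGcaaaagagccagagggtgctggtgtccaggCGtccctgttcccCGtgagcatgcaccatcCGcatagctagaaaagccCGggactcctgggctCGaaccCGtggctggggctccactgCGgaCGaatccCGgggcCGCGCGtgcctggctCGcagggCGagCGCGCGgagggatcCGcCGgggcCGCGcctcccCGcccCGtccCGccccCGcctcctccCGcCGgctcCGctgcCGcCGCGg

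Short motifs were searched on both strands of these windows. GGACAGC, part of the site that Rest is known to bind, was in 4 of 29 members (13.8%), namely Map2, Tubb3, Gad2 and Mog, against 7.49% of measured genes. Map2 and Tubb3 were above 5 and Gad2 and Mog were not. The E-box CAGCTG was in 6 of 29 (20.7%, against 16.1%), the E-box CAGATG in 3 (10.3%, against 13.5%) and the TATA motif TATAAA in 4 (13.8%, against 9.87%). A match describes these letters and not a bound site. The stretches before the start of Map2 (chr1:66175079-66175328, plus strand) and Gad2 (chr2:22622077-22622326, plus strand) are printed because this match lies in them, Map2 carrying it on the other strand as GCTGTCC. Capitals mark it, and in Gad2 also the E-box CATCTG, which reads CAGATG on the other strand.
Map2: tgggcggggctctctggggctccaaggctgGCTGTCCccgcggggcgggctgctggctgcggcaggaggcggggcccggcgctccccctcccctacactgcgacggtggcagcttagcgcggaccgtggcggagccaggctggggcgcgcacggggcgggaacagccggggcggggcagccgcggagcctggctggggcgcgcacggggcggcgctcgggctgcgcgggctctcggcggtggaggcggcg
Gad2: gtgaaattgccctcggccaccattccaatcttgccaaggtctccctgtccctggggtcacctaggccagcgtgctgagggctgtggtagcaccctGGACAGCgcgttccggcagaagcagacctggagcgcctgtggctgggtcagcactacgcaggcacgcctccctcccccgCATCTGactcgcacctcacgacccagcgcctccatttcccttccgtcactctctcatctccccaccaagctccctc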

How the data were processed

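RNA of CH cells was measured on 2 Affymetrix mouse expression arrays, 1 for each pool of mice. The values used here are log2 signals of probe sets, deposited by the authors in one table. According to the methods, RMA and quantile normalisation were run jointly with 5 public series, which were not analysed here. Whether the deposited values come from that run, and tool versions, are not given in the sources used here.

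Of 45101 probe sets, 64 controls were left out. Platform annotation names 1 gene for 34945 of the others, several for 932, and does not list 9160. Symbols were updated through Entrez identifiers (34754 matched, 0 changed). Members and lists were chosen with earlier results of these data known.

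A gene was above the limit when at least 1 probe set exceeded 5 (log2) on both arrays. The mean of the arrays was also tested against 5 in an intercept-only fit (limma 3.58.1, R 4.3.3), two-sided, with p adjusted by Benjamini-Hochberg across 45037 probe sets and a threshold of 0.05. The script was tested on simulated data. Alternatives were limits of 6, 8 and the 95th percentile of the chemosensory receptors, quantile normalization, the median over probe sets, removal of _s_at and _x_at probe sets, omission of each array and, added after seeing the data, every probe set above 5. Named were all members with their highest probe set, every probe set of members on both sides of 5, the 4 highest genes of each further list, Ptprc, Rest, genes within 0.3 of 5 and the 5 member probe sets that differed most between arrays. Sox10, Ms4a1, Cd3g, Itgam, Klf1, Epb42 and Hba-a1 were named after their values were seen. Some genes of the further lists are not reported here. The number of arrays limits the precision. Python 3.11.15 with pandas 2.3.3, numpy 2.4.6 and matplotlib 3.10.9 was used.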

Additional observations from a re-analysis of the deposited data

How the results depend on the processing

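No paired analysis was possible because the arrays form a single group. Quantile normalization moved no count by over 1.5 times and the median difference between the arrays over member probe sets by less than their SD. Without replicate 1 or without replicate 2, the members above 5 numbered 23 to 24, since Th passed on array 2. A higher limit admits fewer genes by construction. At 6, and at the 95th percentile of receptor probe sets, 13 members, 3 progenitor genes, 1 synaptic gene, 0 glial genes and 23 member probe sets were above, with 57.8% and 57.6% of all genes above these limits. At 8, the counts were 4 members, 1 progenitor, 3 neuronal, 0 synaptic and 0 glial genes and 8 member probe sets, and for further lists 2 progenitor, 6 neuronal, 0 synaptic and 3 glial genes, 1 leukocyte marker, 0 erythroid and platelet markers and 0 chemosensory receptors. With the median over probe sets, 15 members, 1 synaptic and 0 glial genes were above. With every probe set above 5, the counts were 6 members, 1 progenitor, 5 neuronal, 0 synaptic and 0 glial genes. The synaptic count was 1 with limma and 1 without _s_at and _x_at probe sets, as Syp dropped out in both. The 21 members above 5 with limma became 13 with the median over probe sets, 12 with the mean against 6 and 4 against 8. All other counts stayed within 1.5 times, among them those of repressors, of widely made relatives and of mesenchymal markers. With 2 arrays and a limit near background, genes between 5 and about 7 cannot be separated from background.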
